A study of Mus musculus with 6 samples.

Results

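Keratins and desmosome genes were measured in whole uteri of mice at 3.5 dpc, shortly before embryos attach, and Arid1a d/d mice were compared with Arid1a f/f mice. The members were the genes whose symbol in the platform annotation is that of a numbered keratin, a desmoglein, a desmocollin, one of the plakophilins, desmoplakin, plakoglobin, periplakin or envoplakin. This rule reads symbols and no measured values. The members numbered 58 of the 18193 genes that have a probe set naming 1 gene. Of these, 44 were keratins and 14 were desmosome genes. The keratins were divided by the epithelia that they are known from, into 5 keratins of simple epithelia, 16 of stratified epithelia, 18 of hair and nail and 5 that were not grouped. The desmosome genes were 6 cadherins, 5 armadillo proteins and 3 plakins.

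Keratins are the intermediate filament proteins of epithelial cells. A type I and a type II keratin pair with each other to build the filament, and in simple epithelia such as that lining the uterus the main pair is KRT8, of type II, with KRT18, of type I. Desmosomes are the spot junctions that tie the filaments of neighbouring epithelial cells together. Desmogleins and desmocollins are cadherins that hold the membranes together across the gap, plakoglobin and the plakophilins are armadillo proteins bound to the cadherin tails, and desmoplakin links that plaque to the keratin filaments. In the rat, desmosomes of the luminal epithelium become fewer as the uterus becomes receptive to the embryo.

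Arid1a d/d females carried 1 Cre allele at the Pgr locus and 2 floxed Arid1a alleles, so that Arid1a was removed in cells that express the progesterone receptor, epithelium and stroma among them, while other cells of the uterus kept it. Arid1a f/f females carried the floxed alleles without Cre. No mice with Cre alone were measured, so an effect of the Cre allele at Pgr cannot be told apart from the loss of Arid1a. Females of both genotypes had been mated with C57BL/6 males, and RNA of the pregnant uterus was hybridised to Affymetrix mouse arrays, with 3 arrays for Arid1a d/d and 3 for Arid1a f/f. Whether every array stands for its own animal is not given by the labels. The p-values therefore cover only the spread among these arrays, which may be technical.

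Values are intensities on a linear scale, normalised by the authors, and values of different genes come from different probes and cannot be set against each other. The table has no detection calls. The median of all intensities, 3.12, is used here as a guide to dimness, since a gene near or below it may not be measured above background. The array medians were 3.05 to 3.17 in Arid1a d/d and 3.10 to 3.15 in Arid1a f/f. Each gene was read from its brightest probe set, and fold changes are Arid1a d/d over Arid1a f/f on the log2 scale, with a standard error (SE) and an adjusted p from limma over all 45037 probe sets. A gene was called higher or lower where the adjusted p was under 0.05. Arid1a itself had intensities of 51.9, 51.9 and 58.2 in Arid1a d/d, against 83.6, 86.9 and 103.9 in Arid1a f/f (log2 fold change -0.76, SE 0.12, adjusted p = 0.0120, limma), and where its probes lie relative to the deleted part was not examined. The epithelial genes Cdh1 and Epcam had intensities of 103.3 or more on every array, so that epithelial RNA was present in the samples labelled as uterus. Blastocysts, which a pregnant uterus can hold, were followed by 6 markers. Cdx2, Pou5f1, Nanog and Tdgf1 lay between 1.68 and 2.78 on all 6 arrays, below the median of all intensities, while Eomes lay above it, from 3.47 to 9.06, and Elf5 did so in Arid1a d/d.

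Promoters of 4 members are shown, because these genes are taken up below. Dsp is the called plakin and Krt23 is the called keratin. Krt8 and Krt18 are partners with log2 fold changes of 0.77 and 0.14, and neither was called. Each run of 300 bases covers 250 bases before and 50 after the annotated start in RefSeq, on the GRCm38.p6 build, read 5′ to 3′ on the strand of the gene. Dsp lies at chr13:38151044-38151343 on the plus strand, Krt8 at chr15:102004293-102004592 on the minus strand, Krt18 at chr15:102027966-102028265 on the plus strand and Krt23 at chr11:99493071-99493370 on the minus strand. Capitals mark the GC box (GGGCGG), the TATA box (TATAAA) and the E-box bound by SNAI and ZEB repressors (CACCTG), each searched on both strands.
Dsp: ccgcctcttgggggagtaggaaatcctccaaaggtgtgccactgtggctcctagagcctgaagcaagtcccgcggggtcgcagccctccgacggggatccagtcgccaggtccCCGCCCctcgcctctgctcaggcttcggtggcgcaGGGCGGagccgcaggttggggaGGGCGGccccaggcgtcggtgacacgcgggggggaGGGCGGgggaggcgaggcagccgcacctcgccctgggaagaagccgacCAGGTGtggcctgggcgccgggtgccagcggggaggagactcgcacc
Krt8: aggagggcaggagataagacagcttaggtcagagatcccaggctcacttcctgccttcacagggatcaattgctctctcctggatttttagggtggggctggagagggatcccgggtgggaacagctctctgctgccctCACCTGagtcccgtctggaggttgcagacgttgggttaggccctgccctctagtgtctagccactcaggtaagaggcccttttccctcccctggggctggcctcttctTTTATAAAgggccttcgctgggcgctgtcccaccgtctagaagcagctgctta
Krt18: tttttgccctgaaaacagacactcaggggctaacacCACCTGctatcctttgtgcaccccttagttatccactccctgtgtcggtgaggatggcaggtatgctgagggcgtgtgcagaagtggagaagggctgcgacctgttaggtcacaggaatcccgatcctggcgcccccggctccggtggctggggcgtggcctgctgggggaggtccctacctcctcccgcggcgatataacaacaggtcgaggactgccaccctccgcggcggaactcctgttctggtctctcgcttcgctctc
Krt23: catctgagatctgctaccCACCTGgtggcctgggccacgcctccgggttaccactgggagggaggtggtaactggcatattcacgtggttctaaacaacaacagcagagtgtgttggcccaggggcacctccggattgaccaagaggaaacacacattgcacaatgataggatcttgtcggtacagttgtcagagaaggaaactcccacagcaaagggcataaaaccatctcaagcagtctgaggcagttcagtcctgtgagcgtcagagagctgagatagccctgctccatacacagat
The Dsp window held 4 GC boxes and no TATA box, and 73.0% of its bases were G or C, against a median of 52.7% over all 32851 promoter windows. The Krt8 window held 2 overlapping TATA box matches, 1 on each strand of the same stretch, and no GC box. These matches began at positions -3 and -1 relative to the annotated start, so the stretch spans that start. No GC or TATA box was found in the windows of Krt18 and Krt23. Each of the 4 windows held 1 E-box match of this type. Windows were found for 34 of the 58 members, 36 windows in all. Of these, 17 (47.2%) held a TATA box, against 13.6% of all windows, 14 (38.9%) held the E-box, against 20.2%, and 5 (13.9%) held a GC box, against 35.7%. The AP-1 site (TGANTCA) was in 2 member windows (5.56%) and in 7.81% of all windows. The full estrogen response element (GGTCANNNTGACC) was in 0 member windows and in 23 of all windows (0.0700%). Such matches describe letters in these windows and not sites in use.

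Of the 14 desmosome genes, 4 rose in Arid1a d/d uteri, and of the 44 keratins 1 fell. The genes that rose were Dsc2, Dsg2, Dsp and Pkp2, and the keratin was Krt23. The other 53 members did not pass the test. Over all genes, 613 (3.37%) were called higher and 738 (4.06%) lower, and over all probe sets these shares were 2.42% and 2.35%. Among the desmosome genes 0 were called lower, and their median log2 fold change was 0.24, against -0.02 over all genes. At an unadjusted p under 0.05, 6 desmosome genes were higher and 0 lower, against 11.4% of all genes higher and 13.5% lower. The 5 simple keratins had a median of 0.77, and 0 were called in either direction by limma, with 3 higher at an unadjusted p under 0.05. The other 39 keratins had a median of -0.02, with 0 called higher and 1 lower. When Arid1a f/f replicate 2 was left out, 1 desmosome gene was higher (Dsg2), and without Arid1a f/f replicate 3 there were 2. The methods' t-test, adjusted in the same way, called 0 members, with 8 higher and 2 lower at an unadjusted p under 0.05, against 9.51% and 10.6% of all genes by that test. Many members were dim. On every array 30 of the 58 lay at or below the median of all intensities, among them 25 of the 44 keratins and 5 of the 14 desmosome genes. The whole uterus holds many cell types, so more epithelial cells and more of an RNA per epithelial cell cannot be told apart in these values.

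**Figure D1:**
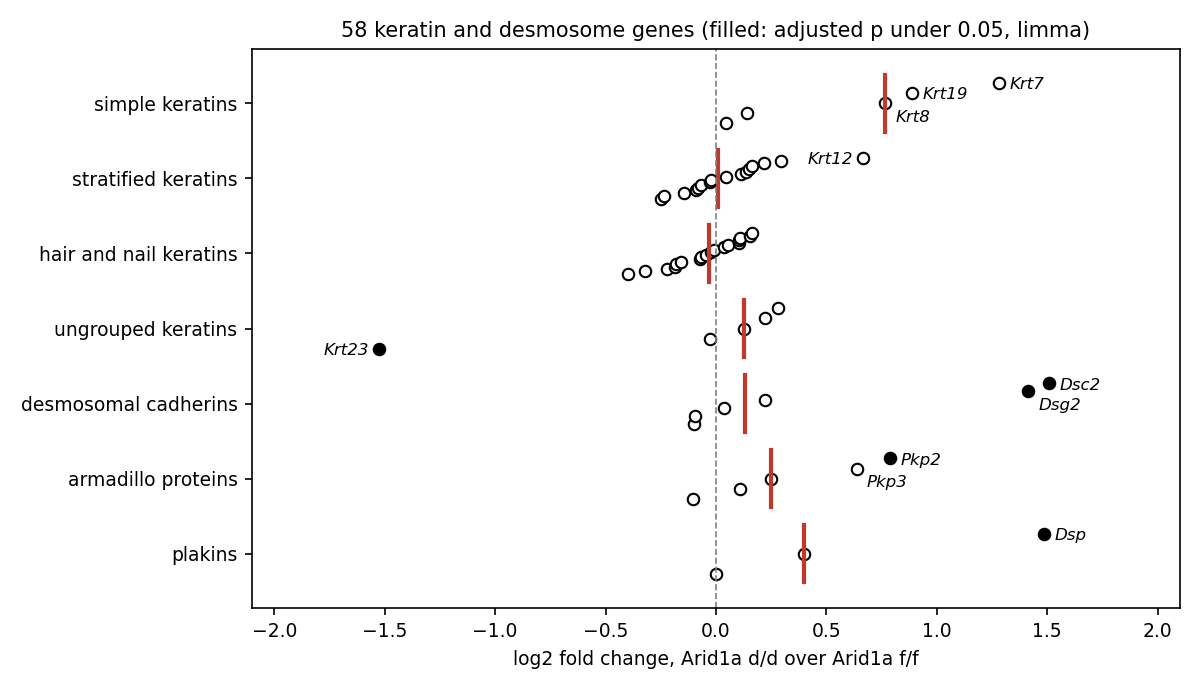
Log2 fold change of each of the 58 members, Arid1a d/d over Arid1a f/f, in rows by group, with the median of each group as a red bar and called genes filled (limma, adjusted p under 0.05). Dsc2, Dsg2, Dsp and Pkp2 lie to the right, as do Krt7 at 1.28, Krt19 at 0.89 and Krt8 at 0.77, which were not called. Krt23, at -1.53, lies alone to the left, while the stratified and the hair and nail keratins lie close to 0 apart from Krt12.

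Dsg2 encodes the desmoglein of simple epithelia and of the heart. It had intensities of 66.1, 83.5 and 62.7 in Arid1a d/d, against 27.5, 24.8 and 27.0 in Arid1a f/f. Every Arid1a d/d array was above every Arid1a f/f array, and the spread within a genotype was small beside the gap. The log2 fold change was 1.41 (SE 0.13, adjusted p = 0.00183, limma), a ratio of 2.66. A second probe set of Dsg2 had 36.3, 49.99 and 31.2 in Arid1a d/d, against 16.1, 17.2 and 20.01 in Arid1a f/f (log2 fold change 1.12, adjusted p = 0.0122, limma). The other 4 of its 6 probe sets were dim, from 1.88 to 5.69, and none was called.

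Dsc2 encodes the desmocollin found with DSG2 in simple epithelia. Its intensities were 15.9, 9.14 and 7.43 in Arid1a d/d, against 3.97, 3.35 and 3.52 in Arid1a f/f. The genotypes did not overlap, but the Arid1a f/f arrays lay just above the median of all intensities, so the size of the fold is uncertain. The log2 fold change was 1.51 (SE 0.24, adjusted p = 0.0138, limma). Dsc2 also had another probe set, which lay between 2.53 and 3.13 on all arrays, with a log2 fold change of 0.02. The call was lost without Arid1a f/f replicate 2 (adjusted p = 0.0667, limma) or replicate 3 (adjusted p = 0.0583, limma).

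The other 4 desmosomal cadherins measured are known mainly from stratified epithelia and lay between 1.56 and 2.43 on every array. Dsc1 had a log2 fold change of -0.10, Dsc3 one of 0.04, Dsg1a one of -0.10 and Dsg1b one of 0.22. None of them was called, with adjusted p of 0.285 or more (limma). All desmosomal cadherin genes sit together on chromosome 18, where the gene table lists 9, of which 6 were measured. The 4 that were not called may not have been measured above background.

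Dsp encodes desmoplakin, the plakin that anchors keratin filaments to the desmosome. It had intensities of 108.7, 184.1 and 123.04 in Arid1a d/d, against 39.3, 46.5 and 61.3 in Arid1a f/f. All 3 Arid1a d/d arrays were above all 3 Arid1a f/f arrays, and Arid1a d/d replicate 2 was the highest. The log2 fold change was 1.49 (SE 0.22, adjusted p = 0.0102, limma), a ratio of 2.80. A second probe set of Dsp gave 66.2, 115.6 and 76.2 in Arid1a d/d, against 24.5, 29.4 and 39.5 in Arid1a f/f (log2 fold change 1.45, adjusted p = 0.0129, limma). The third lay between 1.97 and 2.53. Without Arid1a f/f replicate 2 the call of Dsp was lost, the value being 1.46 (adjusted p = 0.0533, limma).

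The other plakins, envoplakin and periplakin, are proteins of the cornified envelope that also bind keratin filaments. Evpl had 7.56, 9.28 and 8.15 in Arid1a d/d, against 6.10, 6.80 and 6.02 in Arid1a f/f. These did not overlap, but the log2 fold change of 0.40 (SE 0.11, adjusted p = 0.0870, limma) was short of the threshold. Ppl had 8.68, 13.0 and 13.0 in Arid1a d/d, against 11.9, 11.3 and 10.8 in Arid1a f/f. Its Arid1a d/d arrays lay on both sides of the Arid1a f/f arrays, with a log2 fold change of 0.00 (SE 0.16).

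Among the armadillo proteins, Pkp2, the plakophilin of simple epithelia and heart, was the called one. Its intensities were 21.5, 35.3 and 23.3 in Arid1a d/d, against 15.1, 14.4 and 15.9 in Arid1a f/f. The genotypes did not overlap, and the log2 fold change was 0.79 (SE 0.18, adjusted p = 0.0412, limma). This was the call nearest to the threshold. It was lost when any of Arid1a d/d replicate 3 or the 3 Arid1a f/f replicates was left out, and the next brightest probe set gave 0.57 on the log2 scale (adjusted p = 0.320, limma). The brightest probe set of Pkp2 is of a kind that can detect several transcripts. In a fit without such probe sets Pkp2 was not called (adjusted p = 0.333, limma).

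Pkp3, which is widespread in epithelia, had 6.13, 8.81 and 6.13 in Arid1a d/d, against 4.10, 5.44 and 3.95 in Arid1a f/f. The genotypes did not overlap, and the log2 fold change was 0.64 (SE 0.18, adjusted p = 0.0843, limma), short of the threshold. Pkp4, a relative also found at adherens junctions, had 89.6, 107.3 and 104.7 in Arid1a d/d, against 79.6, 90.6 and 83.1 in Arid1a f/f, where the highest Arid1a f/f array lay above the lowest Arid1a d/d array. Its log2 fold change was 0.25 (SE 0.11, adjusted p = 0.271, limma). Pkp1, a plakophilin of stratified epithelia, lay between 1.82 and 2.54, with a log2 fold change of -0.10.

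Jup encodes plakoglobin, which binds both desmosomal and classical cadherins. It had 8.64, 8.87 and 9.21 in Arid1a d/d, against 8.21, 9.21 and 7.44 in Arid1a f/f. The genotypes overlapped, and the log2 fold change was 0.11 (SE 0.11, adjusted p = 0.683, limma). Counted over all 14 desmosome genes, 7 had every Arid1a d/d array above every Arid1a f/f array and 0 had the reverse. The 7 include Dsg1b, which lay between 1.56 and 2.06 on all arrays and may not have been measured above background. Over all genes these shares were 13.4% and 16.0%.

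**Figure D2:**
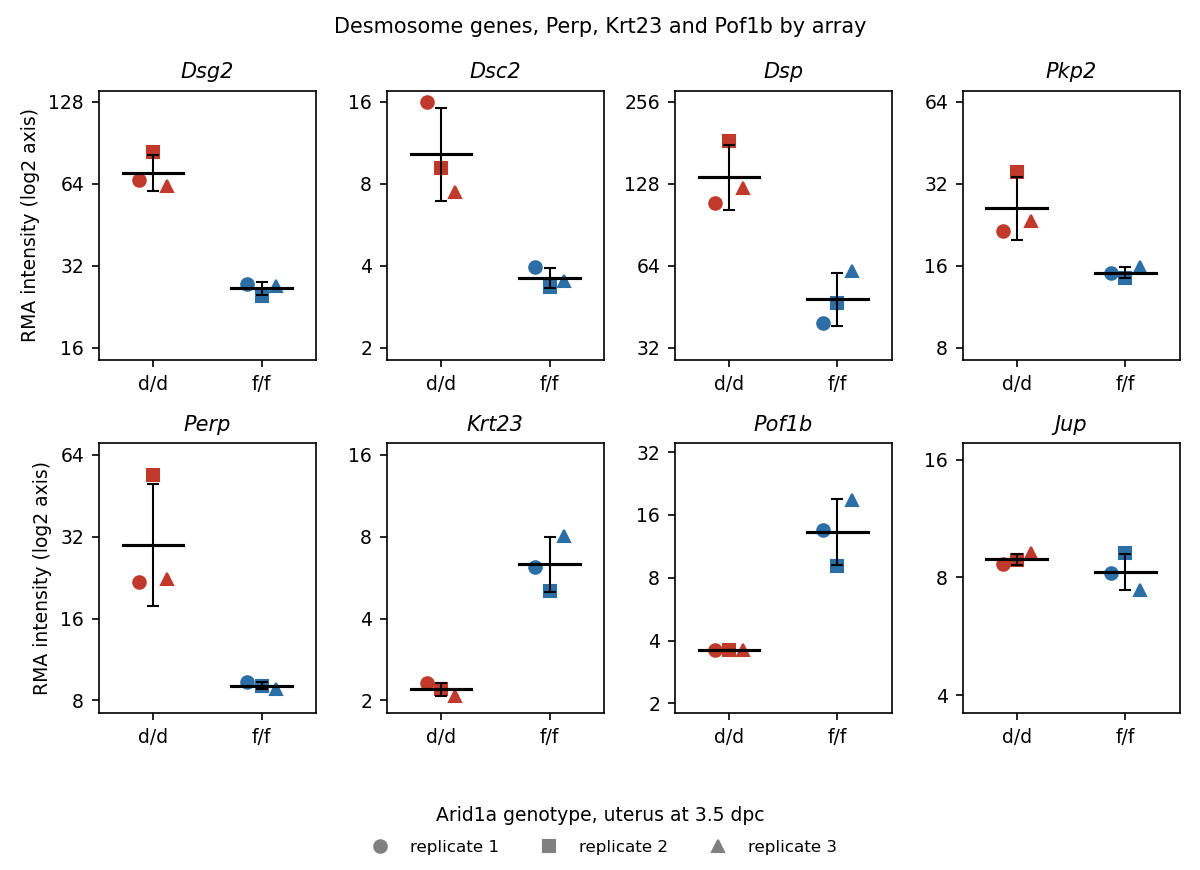
Intensity on each array (log2 axis) of the 5 members called by limma, of their partners Perp and Pof1b and of Jup, with Arid1a d/d in red left of Arid1a f/f in blue and marker shape giving the replicate. Lines are means of the log2 values and bars their SD (n = 3 each), and Dsg2 runs from 62.7 to 83.5 in Arid1a d/d and from 24.8 to 27.5 in Arid1a f/f, while the genotypes overlap for Jup.

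Genes of other proteins of desmosomes, hemidesmosomes and filaments were examined as a list of 14, of which 1 was called higher and 1 lower, with a median log2 fold change of -0.08. Of all genes, 3.37% were called higher and 4.06% lower. Perp encodes a membrane protein of desmosomes. It had 21.9, 54.0 and 22.3 in Arid1a d/d, against 9.34, 9.04 and 8.80 in Arid1a f/f. All Arid1a d/d arrays were above all Arid1a f/f arrays, replicate 2 again being the highest, with a log2 fold change of 1.71 (SE 0.30, adjusted p = 0.0190, limma). Its call was lost without Arid1a f/f replicate 1, 2 or 3 in turn (adjusted p = 0.0641 to 0.0793, limma).

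Pof1b, whose human protein is found at epithelial cell junctions, was the called lower gene of that list. It had 3.60, 3.60 and 3.59 in Arid1a d/d, against 13.5, 9.09 and 18.8 in Arid1a f/f (log2 fold change -1.88, SE 0.22, adjusted p = 0.00468, limma). The Arid1a d/d values were close to the median of all intensities, so the size of this fall is uncertain. Itga6 and Itgb4 encode the integrin of the hemidesmosome. Itgb4 had 7.16, 7.84 and 7.47 in Arid1a d/d, against 9.97, 11.0 and 8.91 in Arid1a f/f, without overlap (log2 fold change -0.41, adjusted p = 0.0755, limma). Itga6 overlapped between genotypes, at -0.17, and neither was called. Over the 14 genes of this list, 2 had every Arid1a d/d array above every Arid1a f/f array and 4 had the reverse. Of all genes, 13.4% and 16.0% did so.

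Krt7, Krt8, Krt18 and Krt19 lay well above the median of all intensities in both genotypes, and none of the 5 simple keratins was called. Krt8, the type II partner of the main pair, had intensities of 300.04, 593.2 and 376.7 in Arid1a d/d, against 244.5, 261.3 and 213.8 in Arid1a f/f. The genotypes did not overlap, and Arid1a d/d replicate 2 stood above the rest. The log2 fold change was 0.77 (SE 0.22, adjusted p = 0.0953, limma), and the other 2 probe sets of Krt8 had 0.75 and 0.69 (adjusted p = 0.140 for each, limma). Without Arid1a d/d replicate 2 the value was 0.49 (adjusted p = 0.144, limma), and without Arid1a d/d replicate 1 it was 0.98 and passed (adjusted p = 0.0415, limma).

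Krt18, the type I partner, had 155.8, 233.2 and 201.2 in Arid1a d/d, against 150.2, 197.4 and 183.7 in Arid1a f/f. The ranges overlapped, with a log2 fold change of 0.14 (SE 0.17, adjusted p = 0.739, limma). Krt18 is the 1 type I keratin gene beside the type II genes on chromosome 15. Of the numbered keratin symbols of the rule, the gene table lists 24 of type II there, including the transcribed pseudogene Krt74. It lists 25 of type I on chromosome 11, and 21 and 22 of these were measured. Keratins with a letter in the symbol, such as Krt6a and Krt6b, are outside the rule and these counts.

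Krt7, the type II keratin of many ducts and glands, had 31.3, 124.6 and 31.2 in Arid1a d/d, against 15.8, 26.9 and 20.04 in Arid1a f/f. The genotypes did not overlap, but replicate 2 of Arid1a d/d set the size of the difference. With all arrays the log2 fold change was 1.28 (SE 0.48, adjusted p = 0.195, limma), and without Arid1a d/d replicate 2 it was 0.61 (adjusted p = 0.194, limma).

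Krt19, a small type I keratin of simple epithelia, had 101.4, 285.2 and 139.1 in Arid1a d/d, against 92.4, 115.2 and 59.5 in Arid1a f/f. Here the ranges overlapped, and the log2 fold change was 0.89 (SE 0.36, adjusted p = 0.235, limma), or 0.47 without Arid1a d/d replicate 2. Krt20, the keratin of intestine and urothelium, lay between 2.06 and 2.31 on all arrays, with a log2 fold change of 0.04.

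**Figure D3:**
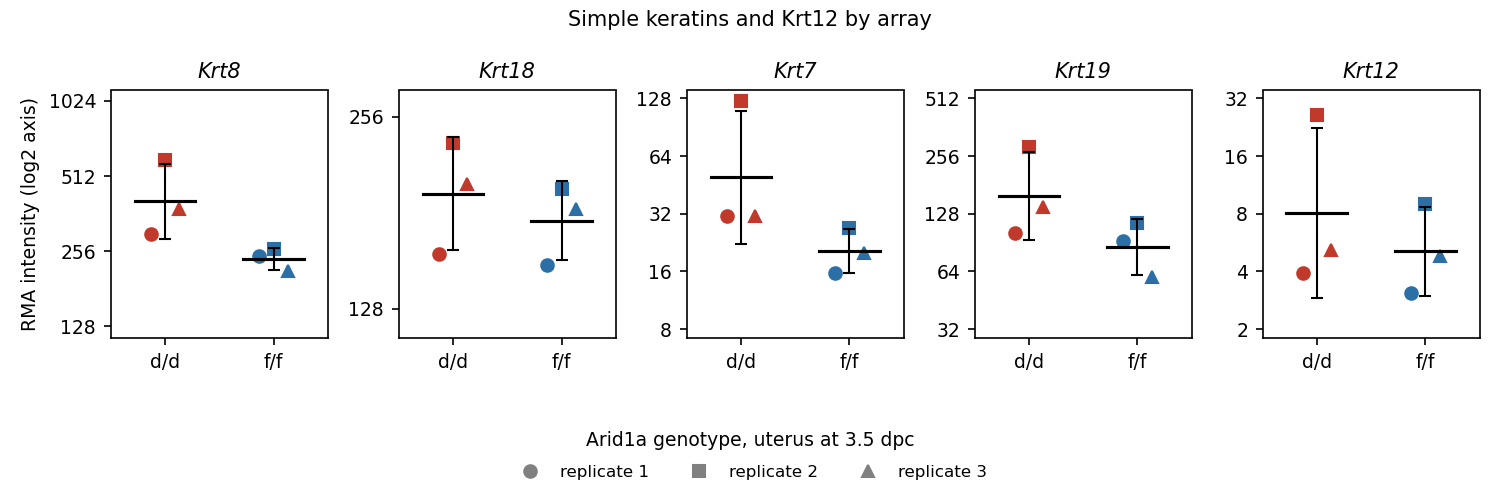
Intensity on each array (log2 axis) of 4 simple keratins and of Krt12, with Arid1a d/d in red left of Arid1a f/f in blue, marker shape giving the replicate, lines the means of log2 values and bars their SD (n = 3 each). Arid1a d/d replicate 2, the red square, is the highest array for each gene, at 593.2 for Krt8 and 124.6 for Krt7.

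Because type I and type II keratins pair, the log2 difference between partners was compared within each array, for 4 pairs. Only the change of such a difference between genotypes can be read, since the probes differ. Log2 Krt8 minus log2 Krt18 was 0.95, 1.35 and 0.90 in Arid1a d/d, against 0.70, 0.40 and 0.22 in Arid1a f/f. All Arid1a d/d arrays lay higher, by 0.62 on average and by 0.48 without Arid1a d/d replicate 2. The exact two-sided permutation test gave p = 0.1, the smallest that 3 against 3 arrays allow, and 0.2 after Benjamini-Hochberg adjustment over the 4 pairs. Log2 Krt7 minus log2 Krt18 was higher by 1.14, or 0.61 without Arid1a d/d replicate 2, also without overlap (exact permutation p = 0.1, adjusted 0.2). Krt8 against Krt19 differed by -0.12 (exact permutation p = 0.7) and Krt7 against Krt19 by 0.39 (exact permutation p = 0.5), and both overlapped.

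Krt23, a type I keratin of the chromosome 11 cluster, was the 1 keratin that passed the test. It had intensities of 2.31, 2.21 and 2.07 in Arid1a d/d, against 6.21, 5.05 and 8.04 in Arid1a f/f. All Arid1a d/d arrays were below the median of all intensities and all Arid1a f/f arrays above it. The log2 fold change was -1.53 (SE 0.16, adjusted p = 0.00324, limma), with its size uncertain because the Arid1a d/d values may be background. The call held when any array was left out, with values from -1.69 to -1.35. Krt23 and Krt12 had been seen in the study's own list of altered genes from these arrays, so their naming is not independent of the values.

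The 16 keratins of stratified epithelia included 0 called genes, against 3.37% of all genes higher and 4.06% lower. Their log2 fold changes ran from -0.25 to 0.67 with a median of 0.01. On every array 11 of the 16 were at or below the median of all intensities. At an unadjusted p under 0.05 in limma 1 was higher (Krt80, log2 fold change 0.30, without overlap) and 0 lower, against 11.4% and 13.5% of all genes. Krt5 and Krt14, the pair of basal cells, lay between 2.01 and 2.88, with log2 fold changes of -0.02 and -0.03. Basal and squamous markers as a list, with 8 of 9 measured, lay between 1.83 and 4.43, and 0 were called, with 0 at an unadjusted p under 0.05 in limma. Krt12, the keratin of the corneal epithelium, had 3.93, 26.1 and 5.16 in Arid1a d/d, against 3.08, 8.96 and 4.80 in Arid1a f/f. Replicate 2 was the highest array in each genotype, and the ranges overlapped. Its log2 fold change was 0.67 (SE 0.66, adjusted p = 0.681, limma) and was -0.18 without Arid1a d/d replicate 2.

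The 18 hair and nail keratins also held 0 called genes, against 3.37% of all genes higher and 4.06% lower. Their log2 fold changes ran from -0.40 to 0.17 with a median of -0.03. The brightest was Krt83, a hair keratin, named after its values were seen. It had 10.4, 11.4 and 9.77 in Arid1a d/d, against 14.6, 14.7 and 12.4 in Arid1a f/f, without overlap (log2 fold change -0.40, SE 0.11, adjusted p = 0.0880, limma). Of the ungrouped keratins other than Krt23, Krt42 had 17.7, 19.0 and 20.2 in Arid1a d/d, against 14.9, 16.4 and 15.5 in Arid1a f/f (log2 fold change 0.28, adjusted p = 0.168, limma). It too was named after its values were seen, and its bright probe set is of a kind that can detect several transcripts. Over the 39 keratins other than the simple ones, 2 had every Arid1a d/d array above every Arid1a f/f array and 4 had the reverse, against 13.4% and 16.0% of all genes.

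Epithelial genes outside the keratins and desmosomes were followed in the same RNA, as 15 measured markers. Cdh1, the cadherin of adherens junctions, had 171.1, 240.0 and 225.3 in Arid1a d/d, against 109.5, 103.3 and 119.8 in Arid1a f/f (log2 fold change 0.92, adjusted p = 0.0119, limma). Rab25, a small GTPase of epithelial membrane traffic, had 22.7, 48.5 and 29.4 in Arid1a d/d, against 13.4, 12.4 and 10.8 in Arid1a f/f (log2 fold change 1.39, adjusted p = 0.0178, limma). These were the 2 called higher, with 0 lower, against 3.37% and 4.06% of all genes, and the median of the list was 0.47. Of the log2 fold changes, 11 were above 0 and 4 below. Those below were Prom1 at -0.54, without overlap, Cldn3 at -0.39, Ehf at -0.16 and Cldn4 at -0.16, none of them called. Rab25 lost its call without any 1 of the Arid1a f/f replicates (adjusted p = 0.0512 to 0.0754, limma), and Cdh1 without Arid1a f/f replicate 2 (adjusted p = 0.0569, limma). The mean log2 intensity of the 15 markers was 5.19, 5.95 and 5.56 in Arid1a d/d, against 5.11, 5.06 and 5.17 in Arid1a f/f, so Arid1a d/d replicate 2 was highest in these genes as in the simple keratins. Their summed intensity ran from 1050 to 1782 in Arid1a d/d and from 1079 to 1192 in Arid1a f/f, with the lowest array in Arid1a d/d. The part of this shift in the desmosome and keratin values was not tested.

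Set against the epithelial mean within each array, Dsc2 was higher in Arid1a d/d by 1.06 on the log2 scale, Dsp by 1.03, Dsg2 by 0.96, Pkp2 by 0.33 and Krt8 by 0.31. For these 5 genes the genotypes did not overlap. The share of all genes without overlap was not computed for this measure, so it cannot be set beside the genes named here. Without Arid1a d/d replicate 2 these differences were 1.33 for Dsc2, 1.00 for Dsp, 1.03 for Dsg2, 0.31 for Pkp2 and 0.23 for Krt8. Dsc2 was highest on Arid1a d/d replicate 1, and without that array its difference was 0.55. The value of Krt7 was 0.83, or 0.35 without Arid1a d/d replicate 2, and that of Krt19 was 0.44, or 0.21 without the same array, and in both the genotypes overlapped. Krt18 lay lower in Arid1a d/d by this measure, at -0.31, as did Ppl at -0.45, Krt83 at -0.85 and Krt23 at -1.98, all without overlap. A gene with equal values in both genotypes also comes out lower, because the epithelial mean was higher in Arid1a d/d. The log2 fold changes of Krt18 and Ppl themselves were 0.14 and 0.00. The dim genes Dsg1a at -0.55, Pkp1 at -0.55 and Krt20 at -0.41 were likewise lower without overlap. Jup at -0.34, Pkp4 at -0.20, Evpl at -0.05 and Pkp3 at 0.18 overlapped. The epithelial mean itself was higher in Arid1a d/d by 0.45, by 0.64 without Arid1a d/d replicate 1 and by 0.26 without Arid1a d/d replicate 2.

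**Figure D4:**
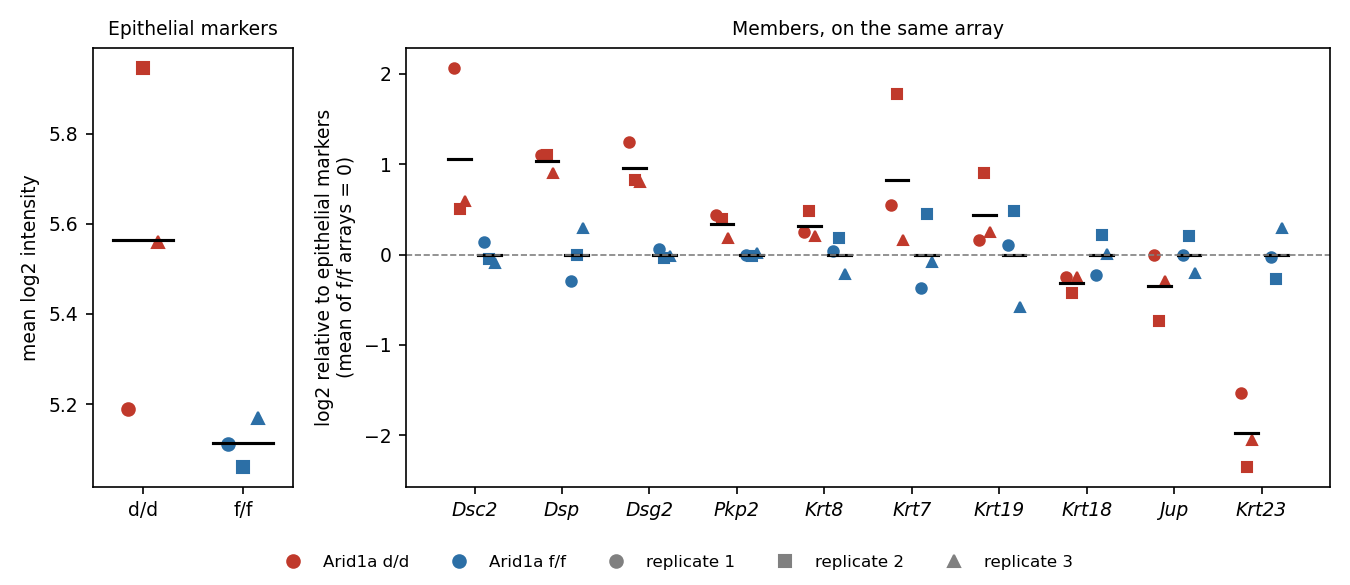
Left, mean log2 intensity of 15 epithelial markers on each array, and right, log2 intensity of each gene minus that mean, with the Arid1a f/f mean set to 0, Arid1a d/d arrays in red, Arid1a f/f arrays in blue and black lines the means of 3 arrays. The Arid1a d/d arrays of Dsg2, Dsc2 and Dsp lie above all Arid1a f/f arrays, by 0.96 to 1.06 on average, and those of Krt18 and Krt23 lie below. A gene with equal intensities in both genotypes would also lie below on average, because the epithelial mean is higher in Arid1a d/d.

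Other cell types also differed in the same RNA. The 10 endothelial markers measured were all called lower in Arid1a d/d, with a median log2 fold change of -1.11. Their summed intensity was 217 to 260 in Arid1a d/d and 529 to 541 in Arid1a f/f. Of 8 stromal markers Dcn was called lower, of 7 smooth muscle markers Des (on its brightest probe set), and of 6 measured leukocyte markers Ptprc, with 0 higher in each list. Of all genes, 4.06% were called lower and 3.37% higher. The medians of these lists were -0.37 for stroma, -0.03 for smooth muscle and -0.36 for leukocytes. In them 4, 2 and 3 genes had every Arid1a d/d array below every Arid1a f/f array, and 0 had the reverse. Over all genes these shares were 16.0% and 13.4%. The mesothelium, which covers the uterus and also expresses simple keratins, was followed by 7 markers, of which 0 were called, with a median of -0.15. Msln, its defining gene, was at 3.22 or less on every array, while Upk3b at 7.16 to 14.6, Upk1b at 5.67 to 9.64 and Gpm6a at 4.32 to 4.97 lay above the median of all intensities on every array, and the genotypes overlapped in these 3. Of the 6 blastocyst markers Elf5, a transcription factor also known from mammary epithelium, was called higher at 0.83 (adjusted p = 0.0323, limma), with intensities of 3.59 to 6.01 in Arid1a d/d, against 2.47 to 2.66 in Arid1a f/f. Eomes, a T-box transcription factor also known from natural killer cells, had 3.47 to 5.91 in Arid1a d/d, against 6.23 to 9.06 in Arid1a f/f, and was not called (log2 fold change -0.71, adjusted p = 0.0920, limma). The part of these cell types in the keratin and desmosome values was not tested.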

How the data were processed

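RNA of whole uteri was measured on 6 arrays. The deposited intensity values were made by the authors with RMA and global scaling (no version given in the sources used here), and lie on a linear scale from 1.29 to 4479. How the scale relates to the trimmed mean target of the methods is not given, so log2 was taken here. Of 45037 probe sets, 34945 name 1 gene in the platform annotation, and the one with the highest mean log2 value stood for each of 18193 genes. All 58 member symbols were found in the GRCm38.p6 gene table. A probe set shared by Krt17 and Krt14 was not used.

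The comparison of genotypes used linear models and moderated two-sided tests from limma 3.58.1 (R 4.3.3), tested on simulated data. P-values were adjusted by Benjamini-Hochberg across every probe set, with a threshold of 0.05. Members and lists were chosen with earlier results of these data known. The text names all simple keratins, the desmosome genes, called keratins and Krt5, Krt12, Krt14 and Krt23, and from other lists the called genes, except the endothelial markers, which are given as counts. Other genes were named after their values were seen or as markers. The alternatives were a replicate block, quantile normalization, median centring, a dim filter, trend and robust eBayes, the methods' t-test, array weights, other probe set choices, other thresholds and each array left out.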

Additional observations from a re-analysis of the deposited data

How the results depend on the processing

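Over all probe sets 1090 were higher and 1057 lower in Arid1a d/d. The methods' t-test with Benjamini-Hochberg adjustment called 0 probe sets and 0 members in either direction. Without adjustment it had 8 members above and 2 below, against 9.51% and 10.6% of all genes. With the stricter threshold of 0.01, 152 probe sets were higher and 237 lower, with 1 member (a desmosome gene, Dsg2) higher and 1 lower (Krt23). At 0.1, 1925 were higher and 1814 lower, with 7 members higher, 1 of them a simple keratin, and 2 other keratins lower. With the mean of each gene's probe sets, the fit held these means and the probe sets that do not name 1 gene, 28285 in all. Of these, 601 were higher and 651 lower, and 3 members were higher and 1 lower. In this fit Dsg2 had 0.49 (adjusted p = 0.0497, limma), against 1.41 on its brightest probe set, and Dsc2 had 0.77 (adjusted p = 0.0372, limma), against 1.51. Without probe sets open to several transcripts, 794 probe sets were higher and 862 lower, with 3 members higher and 1 lower. On second brightest probe sets, which Krt23 does not have, 2 members were higher, both desmosome genes, and 0 lower. Leaving out each array in turn gave 241 to 941 probe sets higher and 337 to 878 lower. Among members 1 to 5 were higher and 1 lower each time, with 1 to 4 desmosome genes and 0 to 1 simple keratins higher. Without Arid1a f/f replicate 2 the 1 higher member was Dsg2, and without f/f replicate 3 there were 2. Dsg2 and Krt23 were called in each of these 6 fits. Pkp2 kept its call in 2 of 6 such fits, and had 0.33 (adjusted p = 0.267, limma) with the mean of its probe sets.

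Whether the numbers of the replicates pair the arrays could not be settled from these values. The deviations of same-numbered arrays correlated at -0.00364, 0.0467 and 0.143, and Arid1a d/d replicates 2 and 3 correlated best with their own number, while replicate 1 did not. With the replicate number as a block, 1126 probe sets were higher and 1039 lower, and 6 members were higher, 1 of them a simple keratin, Krt7 (adjusted p = 0.0454, limma), besides Pkp3 (adjusted p = 0.0206, limma). The calls of the other members stayed as they were.

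Among members, directions were followed across settings for the desmosome genes, the simple keratins, Krt5, Krt12, Krt14 and Krt23. The other keratins were not followed in this way. Of the genes followed, directions turned under some settings for 7 members, none of them called. They also turned for Lmnb2 and Des, which were called. Krt14 was 0.13 without probe sets open to several transcripts and on its second probe set, 0.0417 with the mean of its probe sets, and -0.15 to 0.0402 when single arrays were left out. Dsc1 was 0.00029 with the mean of its probe sets and 0.10 on the second. Dsc3 was -0.12 and -0.27 by those measures, and -0.0064 to 0.0801 without single arrays. By leaving out arrays Pkp1 ran from -0.20 to 0.0210, Krt5 from -0.0830 to 0.0104, Ppl from -0.10 to 0.20 and Krt12 from -0.18 to 1.19. On second probe sets Lmnb2 was -0.0114, against 0.67 on the brightest, and Des 0.35, against -0.64. The cause of these changes was not tested. Quantile normalization, median centring, the dim filter, trend and robust options and array weights left 4 members higher and 1 lower.

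The precision is limited by 3 arrays per genotype, and by the dimness of the 30 members at or below the median intensity on every array, whose folds are uncertain in size.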

Other observations

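Intermediate filament genes outside the keratins differed in both directions. Of 13 measured, Des (desmin of muscle) and Nes (nestin) were lower in Arid1a d/d, and the lamin gene Lmnb2 was higher, with a list median of -0.07. Of all genes, 4.06% were called lower and 3.37% higher. Des had 253.3, 198.5 and 239.7 in Arid1a d/d, against 410.5, 346.6 and 323.7 in Arid1a f/f (log2 fold change -0.64, adjusted p = 0.0313, limma). Nes had 9.52, 9.97 and 10.04 in Arid1a d/d, against 18.2, 16.1 and 14.1 in Arid1a f/f (log2 fold change -0.71, adjusted p = 0.0139, limma). Lmnb2 had 13.2, 14.2 and 15.5 in Arid1a d/d, against 10.02, 8.53 and 8.52 in Arid1a f/f (log2 fold change 0.67, adjusted p = 0.0157, limma). The genotypes did not overlap in any of these 3 genes, but their calls rest on the brightest probe set, and each was lost when the probe sets of the gene were averaged. On the second brightest probe set the direction of Des turned, to 0.35, and Lmnb2 was at -0.01. The calls of Des and Lmnb2 were also lost when some single arrays were left out, as was that of Nes without Arid1a f/f replicate 2. Lmnb1, the other B-type lamin, had 112.6, 146.6 and 132.1 in Arid1a d/d, against 103.6, 68.5 and 84.5 in Arid1a f/f, without overlap, and was not called (log2 fold change 0.62, adjusted p = 0.0717, limma). Vim, the vimentin of stroma and other mesenchymal cells, had a log2 fold change of -0.27 and was not called.

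Genes of squamous differentiation were mostly dim. Of 22 listed, 17 were measured and 0 were called by limma, with 1 higher and 0 lower at an unadjusted p under 0.05, 0 called by the methods' t-test after adjustment and a median of 0.08. Of all genes, 11.4% were higher and 13.5% lower at an unadjusted p under 0.05 in limma. The gene at an unadjusted p under 0.05 was Sprr2f, a small proline-rich protein gene known to respond to estrogen in the mouse uterus. It had 380.6, 312.0 and 30.5 in Arid1a d/d, against 43.9, 28.7 and 14.3 in Arid1a f/f. Arid1a d/d replicate 3 lay within the range of Arid1a f/f, and the log2 fold change of 2.55 (SE 0.86, adjusted p = 0.146, limma) was short of the threshold.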
